A study of Mus musculus with 4 samples.

Results

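Twist factors, E-proteins and ID proteins are helix-loop-helix regulators, and the 9 genes Twist1, Twist2, Tcf3, Tcf4, Tcf12, Id1, Id2, Id3 and Id4 were taken by gene symbol from 55487 genes counted in the mouse skull vault. Poly(A) RNA had been sequenced from the vault of E14.5 mouse embryos. A pair of libraries was made from frontal bone, and another from parietal plus interparietal bone in 1 preparation (called parietal-interparietal here). No genotype, treatment or strain separates the groups in the labels, which name only the bone and the day. The labels do not tell whether the 2 libraries of a group had separate embryos as their source. The p-values therefore measure spread between libraries that may be technical only.

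Helix-loop-helix proteins act as pairs. E-proteins (Tcf3, Tcf4 and Tcf12) are broadly expressed partners that bind E-box DNA through a basic region, and Twist1 and Twist2 are basic helix-loop-helix factors of mesenchyme that pair with E-proteins or with each other. ID proteins keep the helix-loop-helix but lack the basic region, so they hold E-proteins in pairs that cannot bind DNA, and their genes are classical targets of BMP signalling. In people, loss of a copy of TWIST1 or TCF12 causes early fusion of the coronal suture, the seam between the frontal and parietal bones, and Twist proteins restrain osteoblast differentiation through Runx2.

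All 9 genes passed the filter on low counts and were tested with 20947 genes in all. Both Twist genes were lower in frontal libraries, Tcf4 and Id4 were higher, and the other 5 genes were not called (edgeR's quasi-likelihood test, adjusted p under 0.05 over all genes tested). The share called among all tested genes was 12.7% (6.25% higher and 6.44% lower on the frontal side). Levels are in CPM, counts scaled so that libraries of different depth can be compared. All 9 genes exceeded 10 CPM on average, and 19.7% of the tested genes that did so were called.

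The total counts were between 24069177 and 35555013 per library. All 12 osteoblast markers passed the filter, some of them with means under 1 CPM, so genes of the labelled tissue were present. The filter was also passed by 12 of 12 neural progenitor markers, 12 of 12 neuron markers and 11 of 12 muscle markers. In such bulk libraries, fewer cells of a type and less RNA per cell cannot be told apart. The number of calls over all genes was 5373 without frontal library 1 and 7279 without frontal library 2. It was 882 and 865 without parietal-interparietal library 1 and 2. Scaled by library totals alone, 984 genes were higher and 1606 lower, against 1309 and 1348.

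The promoters of 2 called genes that differed in opposite directions are shown here, the bases directly before the RefSeq start site on the gene's own strand (build GRCm38.p6). They were chosen because neither stretch holds an annotated GENCODE exon. The first lies at chr12:33957421-33957670 and the second at chr13:48260866-48261115, both on the plus strand. Capitals mark any match to the words searched for.
Twist1: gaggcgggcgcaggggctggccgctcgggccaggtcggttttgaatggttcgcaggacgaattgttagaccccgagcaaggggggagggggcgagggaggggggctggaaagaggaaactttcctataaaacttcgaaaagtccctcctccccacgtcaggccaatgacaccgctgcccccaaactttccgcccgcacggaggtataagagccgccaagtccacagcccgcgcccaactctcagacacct
Id4: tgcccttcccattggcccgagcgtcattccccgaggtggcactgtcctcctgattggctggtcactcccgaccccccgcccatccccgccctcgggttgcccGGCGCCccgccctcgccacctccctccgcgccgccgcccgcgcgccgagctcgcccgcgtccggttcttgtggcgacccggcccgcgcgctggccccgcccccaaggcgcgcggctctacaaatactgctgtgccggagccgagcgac
Words were searched for on both strands of 32851 windows of 300 bases (250 before and 50 after a start site). The E-box CANNTG was present in 72.3% of them. Its form CAGCTG was present in 16.3%, the form CATCTG in 17.2%, the form CATATG in 3.91% and the form CACCTG in 20.2%, each of which is also a CANNTG match. The GC-rich word GGCGCC, found in BMP-responsive elements, was present in 11.9%, and the SMAD palindrome GTCTAGAC in 0.213%. The Twist1 window held none of the 7 words. The Id4 window held GGCGCC, starting 148 bases before the start site, and no CANNTG. Its RefSeq start site at 48261116 lies before the GENCODE start of the gene at 48261228, and the bases just after it were not found in the GENCODE transcripts of the 9 genes, so the distance holds for the RefSeq start only.

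Windows were matched for 7 of the 9 genes. Those of Twist2 and Id3 held no CANNTG either, that of Id2 held 1 CAGCTG and 1 GGCGCC, and that of Tcf3 held 1 CANNTG match, CACTTG. Each of the 3 start sites of Tcf12 had at least 1 CANNTG match within its window. Of the 250 bases before each start, GENCODE exons of any gene covered all 250 for Twist2 and Id3 and 161 for Id2. They covered 52, 1 and 250 for the 3 starts of Tcf12, and 12 for Tcf3. The RefSeq starts of Id3 (136143822) and Id2 (25096092) lie inside the genes as annotated in GENCODE, and so do their windows. A match describes the letters and is not a binding site.

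Twist1, the mesenchymal factor of the coronal suture (ENSMUSG00000035799, chromosome 12, 33957671 to 33959829, GRCm38), had 1629 and 2247 counts in frontal libraries 1 and 2 and 1964 and 2119 counts in parietal-interparietal libraries 1 and 2. Scaled to library size, these were 56.6 and 63.8 CPM against 80.4 and 78.1 CPM. Both frontal libraries lay below both parietal-interparietal libraries. Twist1 was 1.31-fold lower in frontal libraries, at 60.2 ± 5.07 against 79.2 ± 1.61 CPM (mean ± SD, n = 2; log2 fold change −0.39 ± 0.09 SE; adjusted p = 0.0218, edgeR).

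Twist2, the closely related factor also known as Dermo1 (ENSMUSG00000007805, chromosome 1, 91801461 to 91848028), was at 29.4 and 37.7 CPM in frontal libraries 1 and 2 and at 51.7 and 49.8 CPM in parietal-interparietal libraries 1 and 2. The groups did not overlap, and frontal library 1 was the lowest. The means were 33.5 ± 5.89 and 50.7 ± 1.31 CPM (SD, n = 2), a 1.51-fold difference (log2 fold change −0.59 ± 0.12 SE, edgeR adjusted p = 0.0115). Exons of Twist2 share 1477 bases with the antisense gene Gm29100. That gene had 231 counts over the 4 libraries, and the strand setting of the counting is not given in the sources used here.

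The Twist calls were lost without either parietal-interparietal library, as many calls over all genes were, while the fold changes stayed close. Without library 1 of that group the log2 fold changes were −0.38 (Twist1) and −0.57 (Twist2), and without library 2 −0.42 and −0.63. With all 4 libraries they were −0.39 and −0.59. The standard error of Twist1 was 0.09 with all 4 libraries and 0.17 without either of these. With the pair summed as 1 sample the calls were also lost, and the log2 fold changes were −0.40 and −0.60. Without frontal library 1 the log2 fold change of Twist2 was −0.43, and without frontal library 2 it was −0.80. Twist1 was at −0.31 and −0.49 in the same settings.

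**Figure D1:**
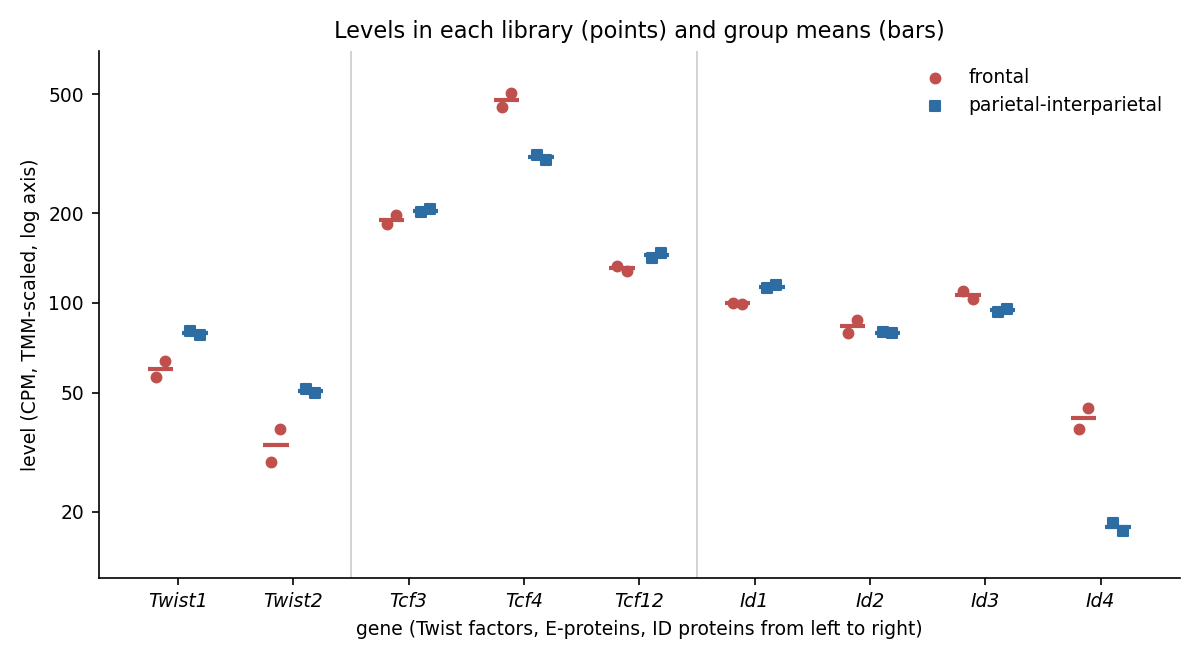
Level of each of the 9 genes (log axis, CPM scaled by the trimmed mean of M-values) in the 2 frontal libraries (circles) and the 2 parietal-interparietal libraries (squares), with group means as bars. Twist1 and Twist2 lie lower in frontal libraries, Tcf4 and Id4 higher, and the points of Id2 overlap between groups.

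Among the E-proteins, Tcf4 alone was called. Tcf4, which encodes the E-protein E2-2 and is abundant in developing brain (ENSMUSG00000053477, chromosome 18, 69343356 to 69689079), had 13024 and 17807 counts in frontal libraries 1 and 2 and 7682 and 8151 counts in parietal-interparietal libraries 1 and 2. These were 453 and 506 CPM against 314 and 300.4 CPM, with no overlap. The means of 479 ± 37.4 and 307 ± 9.88 CPM (SD, n = 2) differed 1.56-fold (log2 fold change 0.64 ± 0.08 SE, edgeR adjusted p = 0.00079). It remained called in all 11 alternative settings, with log2 fold changes from 0.55 to 0.72.

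Tcf3, which encodes E12 and E47, was at 184 and 197 CPM in frontal libraries and at 201 and 206 CPM in parietal-interparietal libraries. Its log2 fold change was −0.10 ± 0.08 SE (edgeR adjusted p = 0.477). Tcf12, which encodes HEB, the partner of Twist1 in suture disease, was at 133 and 128 CPM against 142 and 148 CPM. Its log2 fold change was −0.15 ± 0.08 SE (edgeR adjusted p = 0.263). In both genes the frontal libraries lay below the parietal-interparietal ones, and neither was called with all 4 libraries. Without frontal library 1 and 2 the log2 fold change of Tcf12 was −0.17 and −0.13, and that of Tcf3 was −0.0451 and −0.16.

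The test of Tcf4 was a test of its level and not of a difference from Tcf3 and Tcf12, which was not tested. As a description, the ratio of Tcf3 to Tcf4 per kilobase of merged exons was 2.75 and 2.64 in frontal libraries and 4.34 and 4.65 in parietal-interparietal libraries. The ratio of Tcf4 to Tcf12 was 1.93 and 2.24 against 1.26 and 1.15. The ratio of Tcf3 to Tcf12 overlapped between groups, at 5.32 and 5.91 against 5.45 and 5.36.

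The ID genes differed most in Id4, which is expressed in neural progenitors and is also known to favour osteoblast differentiation. Id4 (ENSMUSG00000021379, chromosome 13, 48261228 to 48266026) had 1092 and 1567 counts in frontal libraries 1 and 2 and 449 and 467 counts in parietal-interparietal libraries 1 and 2. In CPM it was at 38.0 and 44.5 against 18.4 and 17.2, so that each frontal library was above both others. The means of 41.2 ± 4.62 and 17.8 ± 0.823 CPM (SD, n = 2) differed 2.32-fold (log2 fold change 1.21 ± 0.12 SE, edgeR adjusted p = 0.00025). The call was kept in all 11 alternatives, with log2 fold changes from 1.09 to 1.32.

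Id1 and Id3, the most abundant ID genes per length and standard readouts of BMP signalling, lay on opposite sides and were not called. Id1 (chromosome 2, 152736251 to 152737410) was at 100.2 and 99.4 CPM in frontal and at 112 and 115 CPM in parietal-interparietal libraries (log2 fold change −0.19 ± 0.08 SE, edgeR adjusted p = 0.167). Id3 (chromosome 4, 136143497 to 136145755) was at 109.8 and 103 CPM against 93.6 and 95.5 CPM (0.17 ± 0.08 SE, edgeR adjusted p = 0.214). Without frontal library 1 and 2 the log2 fold change of Id1 was −0.19 and −0.19, and that of Id3 was 0.13 and 0.21.

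Id2 (chromosome 12, 25093799 to 25097140), an ID gene with wide expression in mesenchyme and brain, was the only one of the 9 whose groups overlapped. It was at 79.2 and 87.7 CPM in frontal and at 79.8 and 79.4 CPM in parietal-interparietal libraries (log2 fold change 0.07 ± 0.09 SE, edgeR adjusted p = 0.679). The groups did not overlap for the other 8 genes, and they did not overlap for 57.3% of all tested genes.

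**Figure D2:**
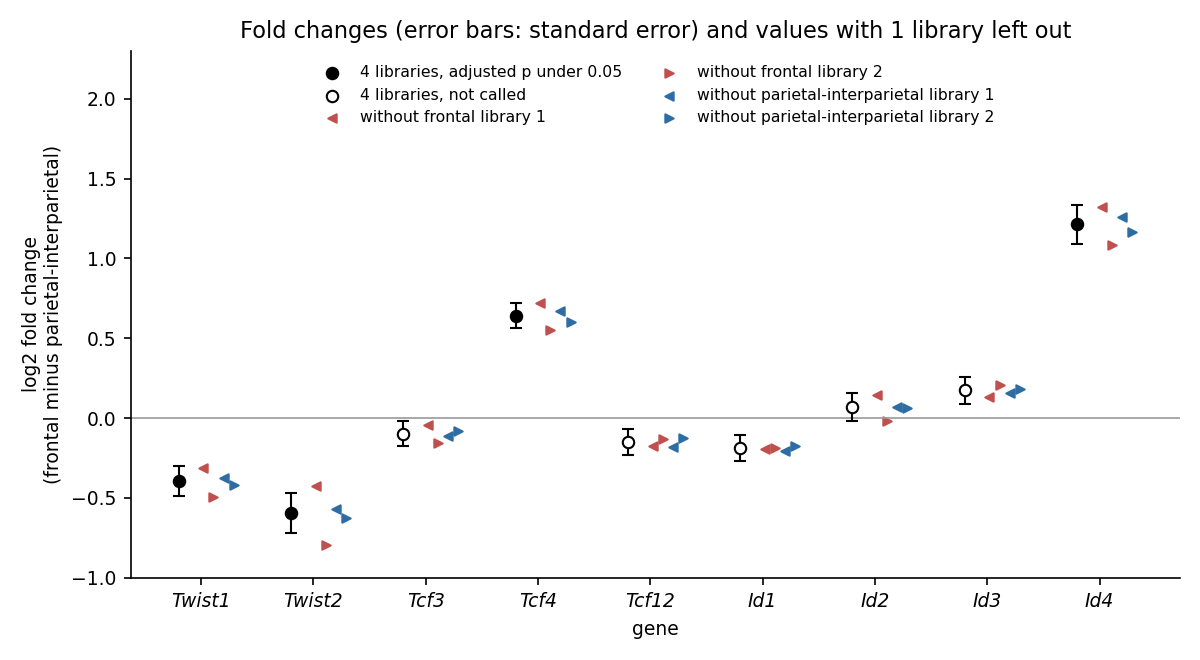
Log2 fold change of each gene, frontal minus parietal-interparietal, with its standard error (black outline, filled where the adjusted p was under 0.05), beside the value with each library left out (triangles). Tcf4 and Id4 lie above 0 and the Twist genes below it with each library left out, while Id2 changes sign without frontal library 2.

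Levels were compared between genes as CPM per kilobase of merged exons. In frontal libraries the order of mean levels was Id1 (86.0), Id3 (59.5), Tcf3 (47.1), Twist1 (37.0), Id2 (34.3), Tcf4 (17.5), Id4 (10.7), Twist2 (10.6) and Tcf12 (8.41). In this order Twist1 and Id2 overlapped between libraries, as did Id4 and Twist2. In parietal-interparietal libraries it was Id1 (97.9), Id3 (52.8), Tcf3 (50.4), Twist1 (48.7), Id2 (32.7), Twist2 (15.99), Tcf4 (11.2), Tcf12 (9.32) and Id4 (4.62), and no neighbours overlapped. On this scale Id4 was the last of the 9 in parietal-interparietal libraries, and it overlapped with Twist2 in frontal libraries.

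The merged exons of Tcf4 and Tcf12 span 27382 and 15529 bases, far more than their longest coding transcripts of 8577 and 6299 bases, so their levels per length depend on the length used, as do places in the order. Per kilobase of the longest coding transcript Tcf4 was at 55.9 ± 4.36 in frontal and 35.8 ± 1.15 in parietal-interparietal libraries (SD, n = 2). Tcf12 was at 20.7 ± 0.510 and 23.0 ± 0.646 on that scale. Id4 was then the last of the 9 in both groups, at 10.7 against 13.3 for Twist2 in frontal libraries, with no overlap. This length was chosen after the data were seen.

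The balance of the classes was described from the summed level of each class, with no test. The summed Twist level was 44.0 and 51.1 CPM per kilobase of merged exons in frontal libraries and 65.7 and 63.7 in parietal-interparietal libraries. The summed E-protein level was 70.5 and 75.5 against 70.4 and 71.5, and the summed ID level was 190.1 and 191.0 against 186.5 and 189.5. On this scale the groups overlapped in the E-protein sum but not in the Twist or the ID sum. The E-protein sum depended on the scale. It was 769 and 831 against 657 and 654 in CPM, and 136 and 146 against 127 and 128 per kilobase of longest coding transcript, with no overlap on either.

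The Twist sum was 0.624 and 0.676 of the E-protein sum in frontal libraries and 0.932 and 0.891 of it in parietal-interparietal libraries, a difference of −0.49 log2 units. The groups did not overlap on any of the 3 scales used, and the difference was −0.60 per kilobase of longest coding transcript and −0.76 in CPM. With Tcf4 left out of the E-proteins it was −0.34. The ID sum was 4.32 and 3.74 times the Twist sum in frontal and 2.84 and 2.98 times in parietal-interparietal libraries, a difference of 0.47 log2 units.

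The ratio of ID to E-protein sums was 2.69 and 2.53 in frontal and 2.65 and 2.65 in parietal-interparietal libraries. On this scale the groups overlapped, with a difference of −0.02 log2 units. In CPM the ratio was 0.425 and 0.403 against 0.462 and 0.470, and per kilobase of longest coding transcript 1.63 and 1.52 against 1.69 and 1.71, without overlap on either. The difference was −0.17 in CPM and −0.11 per kilobase of transcript, but 0.18 as a mean of log2 levels, so its sign changed with the way of summing.

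Within the classes the makeup differed. Tcf4 made up 23.9 ± 0.713% of the E-protein level in frontal and 15.8 ± 0.672% in parietal-interparietal libraries (per kilobase of merged exons, mean ± SD, n = 2). Tcf3 made up 64.5 ± 0.127% and 71.0 ± 0.439%. Per kilobase of longest coding transcript the shares of Tcf4 were 39.6 ± 1.10% and 28.0 ± 1.04%. Id4 made up 5.62 ± 0.610% of the ID level in frontal and 2.46 ± 0.142% in parietal-interparietal libraries, and Id1 45.2 ± 0.421% and 52.1 ± 0.313%. Twist1 made up 77.9 ± 1.59% and 75.3 ± 0.104% of the Twist level.

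**Figure D3:**
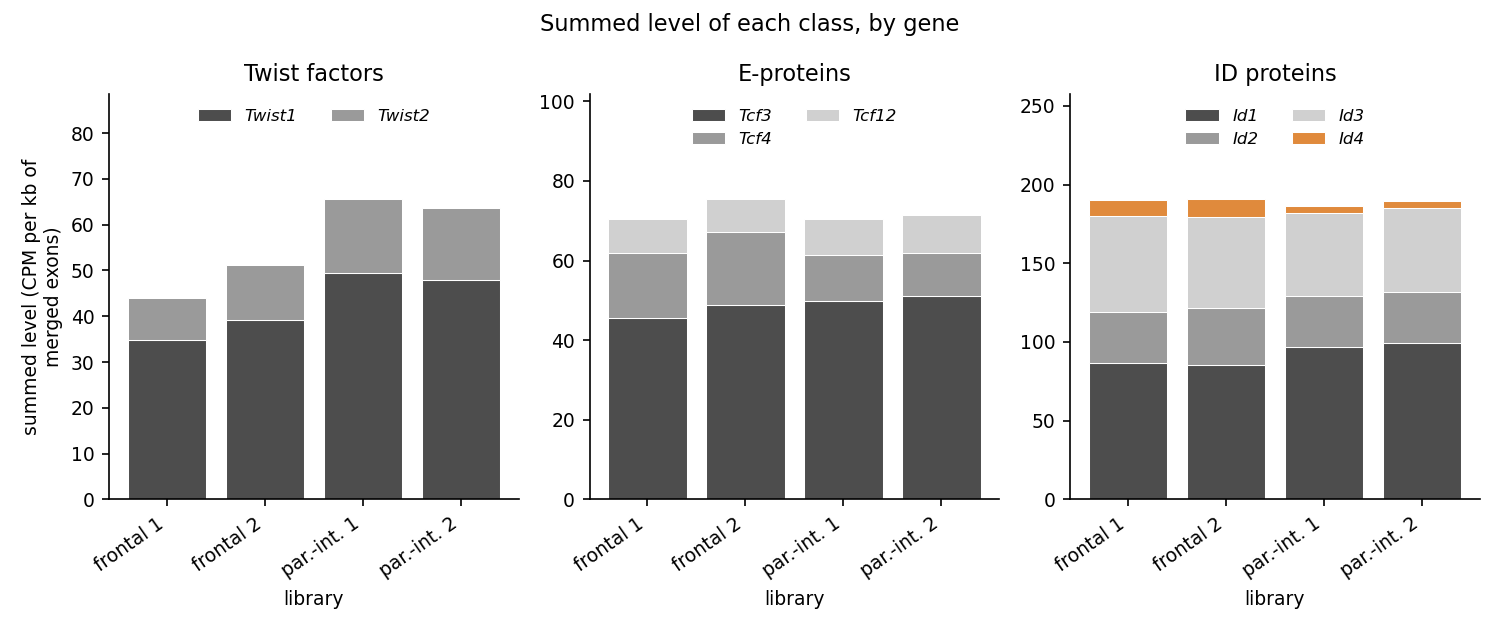
Summed level (CPM per kilobase of merged exons) of the Twist factors, E-proteins and ID proteins in each of the 4 libraries, stacked by gene. The Twist bars are lower in frontal libraries (44.0 and 51.1 against 65.7 and 63.7), while the Tcf4 share of the E-protein bars and the Id4 share of the ID bars are higher there.

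Ratios were also taken between single pairs of genes. The ratio of Twist1 to Tcf4 was 2.104 and 2.12 in frontal libraries and 4.30 and 4.37 in parietal-interparietal libraries (per kilobase of merged exons). The ratio of Twist1 to Tcf12, its best known partner in the suture, was 4.07 and 4.75 against 5.41 and 5.05, a smaller difference of −0.25 log2 units. The ratio of Twist1 to Id4 was 3.53 and 3.39 against 10.3 and 10.7. Of the 36 pairs, that of Twist2 to Id4 differed most, by −1.82 log2 units.

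E-proteins also pair with tissue-specific factors, and those of neurons held the largest fold changes of the 8 lists described here. Of 19 proneural factors, 16 passed the filter, 7 were higher in frontal libraries and 2 lower, with a median log2 fold change of 1.01 against 0.01 over all genes tested. Called were 56.2% of the 16, against 12.7% of all tested genes and 19.7% of those over 10 CPM. All 18 lists used here were chosen with earlier results of these data known. Their shares called are therefore descriptions and not independent of the data. Neurod6 and Neurod2, factors of cortical excitatory neurons, were at 45.5 ± 4.08 against 0.677 ± 0.0321 CPM and at 49.0 ± 0.275 against 1.42 ± 0.133 CPM (SD, n = 2). Neurog2, a factor that commits cortical progenitors to neurons, was at 32.8 ± 4.89 against 2.39 ± 0.615 CPM. Tal2, a factor of midbrain neurons, was lower at 2.19 ± 1.04 against 15.4 ± 2.43 CPM. The number lower was 5 without frontal library 2 and 4 with no filter on low counts, and the number higher was 6 to 8 in the 11 alternatives.

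Of 10 mesenchymal factors related to Twist, 7 passed the filter, 1 was higher and 2 lower, with a median of −0.54. These calls are 42.9% of the 7, against 12.7% of all tested genes. Scx, the scleraxis factor of tendon, was at 18.1 ± 3.30 in frontal against 26.4 ± 1.71 CPM in parietal-interparietal libraries. Msc, which encodes musculin of the jaw muscles, was at 18.4 ± 3.46 against 28.8 ± 1.15 CPM. Hand2, a factor of the lower jaw and of sympathetic neurons, was higher at 4.47 ± 0.711 against 1.87 ± 0.739 CPM. None of these 3 calls was made without parietal-interparietal library 1 or with the pair summed, and without library 2 the list had 1 higher and 0 lower. With no scaling beyond the total count the higher call was lost, which left 0 higher and 2 lower.

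Of 6 myogenic and blood factors that need E-proteins, 4 were lower and 0 higher, with a median of −0.65. That is 66.7% of the list, against 12.7% called among all tested genes. The muscle determination factor Myod1 was at 35.5 ± 4.22 against 56.5 ± 1.39 CPM, and Myog, which drives muscle differentiation, at 81.3 ± 4.34 against 102 ± 1.06 CPM. Myf6, a late myogenic factor, was 3.33-fold lower and Tal1, a blood and endothelial factor, 1.54-fold lower. The number of lower calls was 1 and 2 without parietal-interparietal library 1 and 2.

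Of 9 tested HES and HEY repressors, 2 were higher and 2 lower, with a median of −0.19. The share called was 44.4%, against 12.7% of all tested genes. Hey1 was at 18.9 ± 1.84 in frontal against 8.80 ± 1.57 CPM in parietal-interparietal libraries, and Hes6, a relative that opposes Hes1 in neurogenesis, at 68.8 ± 19.4 against 41.6 ± 3.82 CPM. Heyl, a Notch target of vessel wall cells, was 1.43-fold lower, and Helt, a factor of midbrain neurons, was under 1.5 CPM in both groups. Hes1 was not called (log2 fold change −0.19 ± 0.12 SE, edgeR adjusted p = 0.336). The lower calls were lost without either parietal-interparietal library, which left 2 and 1 higher.

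**Figure D4:**
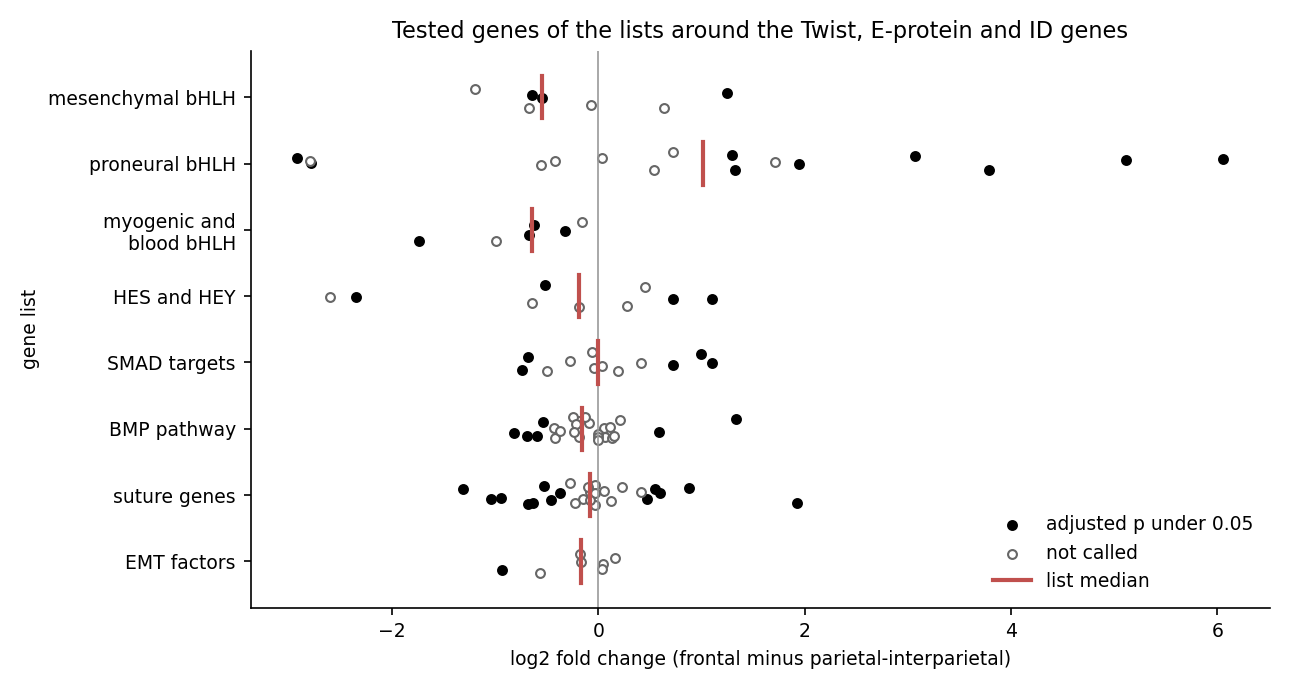
Log2 fold change, frontal minus parietal-interparietal, of each tested gene in 8 lists around the Twist, E-protein and ID genes (filled where the adjusted p was under 0.05), with each list's median as a line. The proneural factors reach from −2.92 to 6.06 with a median of 1.01, while the medians of the other lists lie between −0.65 and 0.00.

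BMP signalling, which drives ID transcription through SMAD1, SMAD5 and SMAD9, was described from ligands, receptors, SMADs and antagonists. Of 26 tested genes, 2 were higher and 4 lower, with a median of −0.16. These are 23.1% of the list, near the 19.7% called among all tested genes over 10 CPM and above the 12.7% of all tested genes. Some of the listed genes, such as Gdf5, averaged under 10 CPM. The ligand genes Bmp2, Bmp4 and Bmp6 were lower in frontal libraries. Bmp4 was at 12.1 ± 1.31 against 18.3 ± 0.239 CPM (SD, n = 2; edgeR adjusted p = 0.021). Rgmb, which encodes the BMP co-receptor DRAGON, was at 41.7 ± 0.2005 against 60.3 ± 1.21 CPM. Gdf5, a joint ligand, was 2.52-fold higher, and Acvr2a, a type II receptor, was higher at 16.3 ± 0.0252 against 10.9 ± 0.557 CPM. Bmp7 and the SMAD gene Smad5 were not called (log2 fold changes −0.19 ± 0.10 and 0.15 ± 0.08 SE). Without parietal-interparietal library 1 the list had 0 higher and 1 lower, and without library 2 it had 0 of either. Without frontal library 1 and 2 it had 6 and 2 higher and 7 and 7 lower.

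Of 12 SMAD target genes other than the ID genes, 3 were higher and 2 lower, with a median of 0.00. The share called was 41.7%, against 12.7% of all tested genes. Smad6, Smad7 and Bambi, which feed back on the pathway, were not called, at log2 fold changes of −0.28 ± 0.20, −0.07 ± 0.16 and 0.04 ± 0.14 SE. Msx1 and Msx2, homeobox factors of skull mesenchyme, went in opposite directions, at 35.4 ± 2.64 against 21.4 ± 0.845 CPM and at 13.8 ± 2.94 against 22.3 ± 1.75 CPM. Tgfb1i1, a focal adhesion co-regulator, was 1.67-fold lower.

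Of 26 genes of suture biology or craniosynostosis, 5 were higher and 8 lower, with a median of −0.08. The share called was above the 12.7% of all tested genes and the 19.7% of those over 10 CPM. Fgfr3 was 3.79-fold higher, and Epha4, an ephrin receptor downstream of Twist1 at the coronal suture, was at 89.5 ± 0.0537 against 48.6 ± 5.81 CPM (SD, n = 2; edgeR adjusted p = 0.000547). The ephrin ligand genes Efna2 and Efna4 differed in direction, at 40.6 ± 9.37 against 83.6 ± 2.79 CPM and at 31.7 ± 5.85 against 21.6 ± 0.00808 CPM. Jag1, the Notch ligand of the coronal suture, was 1.55-fold lower. Six2 and En1, homeobox factors of head mesenchyme and of the midbrain border and supraorbital region, were 1.92-fold and 2.48-fold lower. Fgfr1, Fgfr2 and Runx2 were not called. The counts were 2 higher and 5 lower without parietal-interparietal library 1, and 2 and 3 without library 2. Without frontal library 1 and 2 they were 7 and 6 higher and 11 and 10 lower.

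Of 7 factors of epithelial-mesenchymal transition, which Twist1 also promotes, 1 was lower and 0 higher, with a median of −0.17. That is 14.3% of the list, near the 12.7% of all tested genes and under the 19.7% of those over 10 CPM. Snai1 was at 29.0 ± 2.58 in frontal against 55.5 ± 0.572 CPM in parietal-interparietal libraries (SD, n = 2; log2 fold change −0.94 ± 0.10 SE; adjusted p = 0.000422, edgeR). Snai2, Zeb1, Zeb2, Prrx1, Prrx2 and Foxc2 were not called. Without frontal library 1 the list had 1 higher and 2 lower, and without frontal library 2 it had 0 higher and 4 lower. With no scaling beyond the total count 2 were lower.

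Markers of other tissues also differed between the groups, in either direction. Of the neural progenitor markers 5 of 12 were higher and 1 lower in frontal libraries. Their summed level was 1402 and 1425 CPM against 1181 and 1157 CPM. The share called was above the 12.7% of all tested genes and the 19.7% of those over 10 CPM. The forebrain factors Lhx2, Pax6 and Emx2 were 6.95-fold, 6.12-fold and 2.32-fold higher. Other members of the list went otherwise. The glial glutamate transporter gene Slc1a3 was 1.43-fold lower (edgeR adjusted p = 0.0117), and Nes, Vim and Fabp7 were not called (log2 fold changes 0.09, 0.11 and −0.0183). Of the neuron markers 4 of 12 were higher and 3 lower, with sums of 950.1 and 979.5 against 898 and 905 CPM. The share of neuron markers called was 58.3%, against the same 12.7% and 19.7%. Map2 and Elavl3 were 1.37-fold and 1.28-fold higher. The others higher were Neurod2 and Neurod6, also counted among the proneural factors. They averaged 49.05 and 45.5 CPM in frontal against 1.42 and 0.677 CPM in parietal-interparietal libraries, which adds to the frontal sums. With both left out, the neuron sum was lower in each frontal library than in either parietal-interparietal library. Syt1, Gap43 and Stmn2 were 1.90-fold, 1.61-fold and 1.26-fold lower. No marker of these lists was at 0 in all libraries. Without either parietal-interparietal library the progenitor counts were 5 higher and 0 lower, and the neuron counts 2 higher and 2 lower. Without frontal library 2 they were 8 and 2, and 6 and 4. Both Tcf4 and Id4 are known to be expressed in the embryonic brain, and the part of neural tissue in their difference was not tested.

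Most markers of meninges and muscle were lower in frontal libraries, as the Twist genes were. Of the meninges markers 8 of 12 were lower and 0 higher, with sums of 898 and 946 CPM in frontal against 1226 and 1232 CPM in parietal-interparietal libraries. Muscle markers were lower in 9 of 11 tested members, with sums of 1570 and 1470 against 2088 and 2100 CPM. Called were 66.7% of the meninges and 81.8% of the muscle markers, against 12.7% of all tested genes (6.44% lower). Without parietal-interparietal library 1 and 2 the meninges count was 4 and 5 lower and the muscle count 2 and 3 lower. The type I collagen genes Col1a1 and Col1a2 were 1.53-fold and 1.40-fold lower. Osteoblast markers were higher in 2 and lower in 2 of 12, with sums of 2604 and 2618 against 3653 and 3651 CPM, most of which came from these collagens. The share of osteoblast markers called was 33.3%, against 19.7% of the tested genes over 10 CPM. The number of osteoblast markers higher was 5 and 4 without frontal library 1 and 2, and 1 without either parietal-interparietal library. The part of these tissues in the Twist difference was not tested.

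In each of the remaining marker lists 12 genes were tested. Cartilage markers were higher in 2 and lower in 3, and endothelial markers in 1 and 1. Erythroid markers were lower in 7, macrophage markers in 2 and epidermal markers in 3, with 0 higher in each. The 16.7% of endothelial and of macrophage markers called lies near the 12.7% of all tested genes and the 19.7% of those over 10 CPM, and 58.3% of the erythroid markers were called. Of the cartilage markers 41.7% and of the epidermal markers 25.0% were called. The erythroid, macrophage and epidermal counts fell to 4, 0 and 0 without parietal-interparietal library 1 and to 4, 0 and 1 without library 2. With no scaling beyond the total count 5 macrophage and 5 epidermal markers were lower. Without either parietal-interparietal library 1 cartilage marker was lower. The summed erythroid level was 12110 and 10210 CPM in frontal against 14850 and 14730 CPM in parietal-interparietal libraries.

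For each called gene, the 3 protein-coding genes with the most similar profile were taken from 9938 genes that averaged 10 CPM or more. Likeness was the Euclidean distance between centred log2 levels over the 4 libraries, so a distance near 0 means a near-identical pattern. Those of Id4 were Emx2, a forebrain homeobox factor (distance 0.0268), Ttyh1, a membrane protein gene of neural progenitors (0.12), and Ibsp, which encodes bone sialoprotein (0.128). Within 0.2 of Id4 lay 12 genes. Emx2 was at 57.0 and 68.2 CPM in frontal against 28.1 and 26.0 CPM in parietal-interparietal libraries.

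Those of Tcf4 were Grtp1 (distance 0.0282), Dpm3 (0.06) and Gng5 (0.0613), with 154 genes within 0.2. Those of Twist2 were Rxylt1 (0.00968), Tnfsf12 (0.0226) and Vta1 (0.0291), with 263 genes within 0.2. Those of Twist1 were Eif3e, a translation initiation subunit (0.00883), Sft2d1 (0.0147) and Acly, the citrate-cleaving enzyme (0.0259), with 965 genes within 0.2. With 4 libraries in 2 groups these numbers follow the size of the fold change, which was smallest for Twist1 and largest for Id4 among the 4 called genes.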

How the data were processed

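Poly(A) RNA of 4 libraries was compared, 2 of frontal and 2 of parietal-interparietal bone. The deposited values are whole-number counts per Ensembl gene, not normalized. The tools named are HISAT2 2.1.0, featureCounts 2.0.1 and Trim Galore 0.6.7 with build GRCm38, per the submitters' processing notes, which give no settings here. Among counts of 1 to 20, 68.3% to 74.4% were even, so counts were also halved.

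Symbols, positions and exon lengths came from GENCODE M21 of GRCm38, which matched 55141 of 55487 IDs. Genes were filtered with filterByExpr (minimum count 10), scaled by TMM (trimmed mean of M-values) and tested two-sided in edgeR 4.0.16 (R 4.3.3). The model held group alone, which leaves 2 residual degrees of freedom. Benjamini-Hochberg adjustment ran over 20947 genes. Standard errors are the log2 fold change over the square root of F. DESeq2 1.42.0 was an alternative. The procedure was also run on simulated counts, with the same spread set for all genes in both groups. That run does not cover groups that differ in spread.

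The 9 genes and the 18 lists (237 entries, 1 without a matching row) were chosen with earlier results of these data known. Named genes are the 9, up to 4 of each list with the smallest p, and the 3 nearest profiles of each called gene (log2 of CPM plus 0.5). Slc1a3, Nes, Vim, Fabp7, Bmp2, Bmp6, Bmp7, Smad5, Smad6, Smad7, Bambi, Msx2, Hes1, Efna2, Efna4, Jag1, Fgfr1, Fgfr2, Runx2, Snai2, Zeb1 and Prrx1 lie outside this rule and were named for their role after their values were seen. Elavl3, Stmn2 and Syt1 also lie outside it and were named to complete the called neuron markers. Values of some genes under the rule are not reported here. Promoter windows came from RefSeq (GRCm38.p6). Protein sequences were not used here. Figures were drawn with matplotlib 3.10.9.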

Additional observations from a re-analysis of the deposited data

How the results depend on the processing

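Of the 9 genes, Tcf4 and Id4 kept their call and direction in all 11 alternatives. Twist1 and Twist2 kept theirs under RLE scaling, no scaling beyond the total count, DESeq2, no filter, halved counts, the replicate block and without either frontal library. With both parietal-interparietal libraries added into 1 sample, 791 genes, 2 of the 9 genes and 47 list entries were called (against 2657, 4 and 98 with all 4 libraries), and Twist1 (−0.40) and Twist2 (−0.60) were not called. With 1 library left out, a fit in which the lone library is assumed to vary like the other group, between 865 and 7279 genes were called, 2 to 8 of the 9 genes and from 50 list entries up to 147. Log2 fold changes then ranged from −0.49 to −0.31 for Twist1, −0.80 to −0.43 for Twist2, −0.16 to −0.0451 for Tcf3, −0.18 to −0.12 for Tcf12, −0.21 to −0.17 for Id1, 0.13 to 0.21 for Id3 and −0.0159 to 0.14 for Id2, which reversed without frontal library 2. The cause was not tested.

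The labels do not tell whether same-numbered libraries are paired. Their deviations from the group means correlated at 0.022 over 10395 genes, which cannot settle this with 2 libraries a group. With the replicate number as a block 3306 genes were called, against 2657, and the same 4 of the 9 genes.

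The balance values were −0.17, −0.76 and 0.59 (ID over E-protein, Twist over E-protein, ID over Twist) in CPM, and 0.18, −0.63 and 0.82 as means of log2 levels. Per kilobase of the longest coding transcript, chosen after seeing the data, the first was −0.11 and the second −0.60. ID over E-protein was −0.31 without Tcf3, 0.12 without Tcf4, 0.17 without Id1, −0.0868 without Id3 and −0.0693 without Id4. Twist over E-protein was −0.65 without Twist1, −0.78 without Tcf3 and −0.34 without Tcf4. ID over Twist was 0.63 without Twist1 and 0.66 without Id1. With 1 library left out, ID over E-protein lay between −0.0674 and 0.0238, Twist over E-protein between −0.55 and −0.43, and ID over Twist between 0.36 and 0.57.

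With 2 libraries a group, an exact two-sided permutation test cannot go below 0.333.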
